A study of Zea mays with 32 samples.

Results

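Palomero is 1 of 8 maize (Zea mays) landraces whose leaf primordia were profiled by RNA sequencing, and its libraries are set here against those of the other 7 landraces. They were taken by their labels alone, as the 4 of 32 libraries that carry the Palomero name, 2 from leaf 9 and 2 from leaf 5 in the labels' numbering of leaves. The 28 libraries they were compared with came in the same layout, 2 per leaf, from Mushito, Tabloncillo, Reventador, Zapalote, Gordo, Nal-tel and Jala. All 16 groups of landrace and leaf were grown at 35 °C, under a treatment that the labels call heat, and primordia were sampled at plastochron stage 4. The 32 libraries include no other temperature, so nothing below separates what Palomero does in heat from what it does in any condition. The title of the series places it in work on leaf veins and photosynthesis.

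A landrace is a variety kept by farmers over many generations, and its plants are not genetically uniform. Palomero is a popcorn-type race of the Mexican highlands. A leaf primordium is the young leaf at the shoot apex before it expands, and the plastochron stage counts the leaves begun since that leaf. Maize is a C4 plant, whose close leaf veins are laid down while the leaf is still a primordium. Early leaves of maize are juvenile and later leaves are adult, with the change between them falling among the leaves in between.

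The deposited table pairs no gene ID with a name, and 0 of its 39756 IDs matched the RefSeq gene table, so each gene appears below by its ID and no role is given. For the same reason the markers of the leaf's cell types and the pathway lists could not be looked up, and the labelled tissue was not checked against them. The labels do not say whether the 2 libraries of a group came from separate plants or pools. The p-values therefore measure the spread between these libraries, which may be technical.

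Of the 4 Palomero libraries, 3 lay below the median depth of the 32 libraries (65.95 M reads). They held 57.8 and 54.8 M reads for leaf 9 and 61.4 and 66.2 M for leaf 5, against 54.9 to 121 M in the other 28 libraries (median 67.9 M). In leaf 5 replicate 1 of Palomero 30585 genes were above 0, the highest number of all 32 libraries, against 29123, 28975 and 29459 in the other Palomero libraries. In it 177 genes had at least 10 reads while having at most 3 in the other 3 Palomero libraries; the same count was 56, 54 and 71 for those 3, and 53 to 218 in libraries of the other landraces. Among genes called lower in Palomero, 124 were at 3 reads or fewer in the other 3 Palomero libraries, and 56 of them (45.2%) were above 3 reads in this library. The same share was 6.85% for leaf 5 replicate 2, and 19% and 17.1% for leaf 9 replicates 1 and 2. The part that this library's extra genes play in the results was not tested, and values without it are given beside the counts.

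Palomero differed from the mean of the other 7 landraces in 2526 of 26156 genes with a mean of at least 10 normalized counts (9.66%). Of these, 1398 were higher in Palomero (5.34%) and 1128 were lower (4.31%), by limma on log2(normalized count + 1) with a Benjamini-Hochberg adjusted p under 0.05. Genes past that threshold are referred to as called. The difference was at least 2-fold for 851 of the higher genes and 612 of the lower ones, and at least 4-fold for 504 and 327. The median size over the called genes was 1.27 on the log2 scale. Of the higher genes, 76 (5.44%) averaged under 10 normalized counts in the 28 other libraries and so entered the test only through Palomero; 239 of the lower genes (21.2%) averaged under 10 in Palomero. The median log2 fold change over all tested genes was 0.0099 in the authors' normalization. In bulk tissue, fewer cells of a type and less RNA per cell cannot be told apart.

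Among called genes, median differences were largest in weakly expressed genes, by the mean over all 32 libraries, Palomero included. Values of weak genes spread more between replicates, so only larger differences could be called there, and the medians partly follow from the threshold. Of genes with a mean of 10 to 50 normalized counts, 12.2% were called, 358 higher and 181 lower, with a median size of 2.49 on the log2 scale. The share was highest, 16.1%, for means of 50 to 100, where 174 genes were higher and 113 lower. Above a mean of 10000 it was 4.5%, with 24 genes higher and 34 lower, and the median size there was 0.38 on the log2 scale. Fold changes on this scale understate those of low genes. The genes called higher made up 3.07% to 3.53% of the summed signal of a Palomero library, and 1.94% to 2.86% (median 2.16%) in the other libraries. The genes called lower made up 1.98% to 2.27% in Palomero libraries and 2.54% to 3.79% (median 3.17%) in the others. Those genes were chosen for these values, so the shares only give their weight in the transcriptome.

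**Figure D1:**
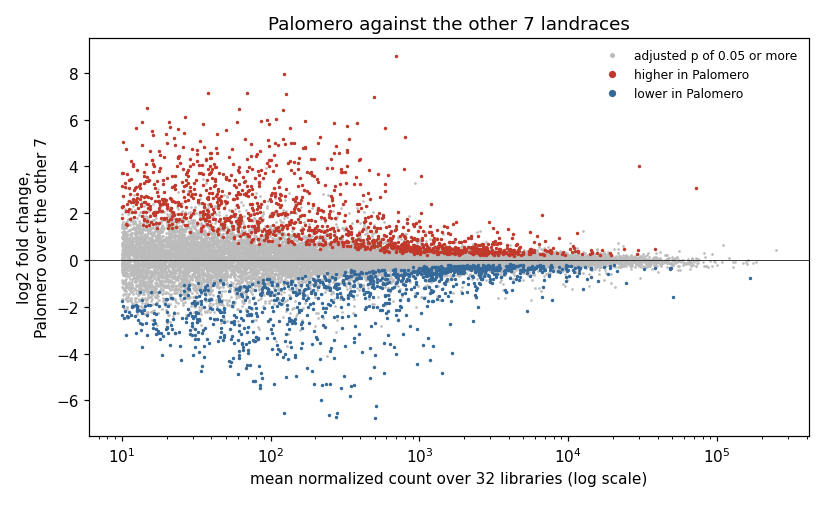
Log2 fold change of each of 26156 tested genes, Palomero over the mean of the other 7 landraces (vertical axis), against its mean normalized count over 32 libraries (horizontal log axis). Red points are the 1398 genes called higher in Palomero, blue points the 1128 called lower and grey points the rest; the red and blue points spread widest at low means.

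That count rests on the spread between replicate libraries, and it fell when any 1 Palomero library was left out. Each Palomero library weighs more in the comparison than any other library, so a larger drop without it follows partly from the design. Without leaf 9 replicate 1 of Palomero 1399 genes were called and without its leaf 9 replicate 2, 1200. Without leaf 5 replicate 1 the number was 1411, and without leaf 5 replicate 2 it was 1309. Leaving out any 1 of the 28 other libraries gave 2290 to 2903 calls. When each landrace was reduced to 1 value and the spread between landraces was the error, limma called 0 genes (0%). The lowest adjusted p of that fit was 0.0701, with 1274 genes (4.87%) at an unadjusted p under 0.05. Against the same groups, edgeR's quasi-likelihood test on recovered reads called 2564 genes (9.8%) and DESeq2 3591 (13.7%); 2255 and 2469 of the limma calls were among them in the same direction. Under edgeR 66.1% of the calls were higher in Palomero, against 55.3% under limma.

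Among genes with a mean of at least 100 normalized counts whose Palomero libraries all lay above the other 28, Zm00001eb004080 had the largest rise. It had 4489 and 3639 normalized counts in leaf 9 of Palomero and 3640 and 5588 in leaf 5, against 0 to 1685 (median 4.18) in the other 28 libraries. The only landrace near Palomero was Mushito, with 633 and 619 in leaf 9 and 1685 and 1587 in leaf 5; the other 24 libraries did not exceed 133. Its log2 fold change was 8.72 (SE 0.75, limma adjusted p = 1.79e-07), with an adjusted p of 0.858 when limma took the landrace as the unit.

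Zm00001eb115330 was close to silent outside Palomero. It had 638 and 804 normalized counts in leaf 9 of Palomero and 981 and 1300 in leaf 5, against 0 to 78.4 (median 2.02) elsewhere. Again the highest of the other libraries was from Mushito, and the other 24 libraries reached at most 10.9. The log2 fold change was 7.95 (SE 0.69). The gene averaged 7.37 in the 28 other libraries, so it met the minimum means for testing and naming only through Palomero, and its p-value is not given.

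On the lower side, Zm00001eb195370 had 0 and 0 normalized counts in leaf 9 of Palomero and 44.1 and 7.43 in leaf 5, against 103 to 1828 (median 469) in the 28 others. Every library of every other landrace expressed it, and the 44.1 came from leaf 5 replicate 1 described above. The log2 fold change was −6.74 (SE 0.35, limma adjusted p = 4.41e-10; 0.0701 with the landrace as the unit). Zm00001eb338040 showed the same layout, with 0 and 0 in leaf 9 of Palomero and 9.92 and 2.12 in leaf 5, against 58.4 to 708 (median 268) elsewhere. Its log2 fold change was −6.71 (SE 0.37, limma adjusted p = 5.05e-10; 0.118 with the landrace as the unit). None of these 4 genes had overlapping groups, which the rule for naming them required.

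**Figure D2:**
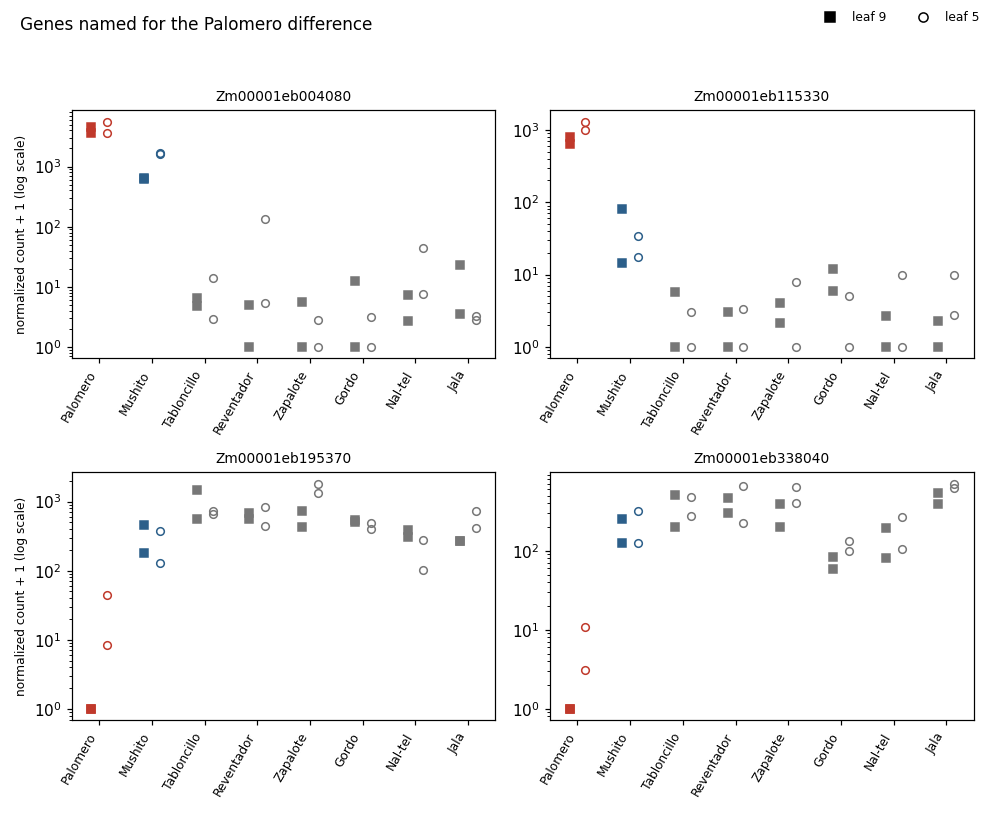
Normalized counts plus 1 (vertical log axis) of the 2 genes named first in each direction, by landrace; filled squares are leaf 9 libraries, open circles leaf 5 libraries, with Palomero in red and Mushito in blue. In the upper panels Palomero lies above all other libraries and Mushito comes next; in the lower panels Palomero lies below all 28.

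How far Palomero stood from the others depended on the landrace it was set against. Mushito was nearest: 458 genes differed (1.75%), of which 205 were higher (0.784%) and 253 lower (0.967%) in Palomero. Between 2055 and 2587 genes differed from each of Gordo (2055, 7.86%), Tabloncillo (2100, 8.03%), Jala (2168, 8.29%) and Zapalote (2587, 9.89%). The number was 4099 (15.7%) against Nal-tel and 5384 (20.6%) against Reventador, with 3053 higher (11.7%) and 2331 lower (8.91%). More genes were higher than lower in Palomero in each of these 6 pairs, and fewer in the pair with Mushito, but the direction turned in some alternatives. The Gordo pair had 1446 higher and 1546 lower genes with DESeq2, and 650 and 711 without leaf 5 replicate 1 of Palomero, where the Zapalote pair had 888 and 890. The Mushito pair had 330 higher and 309 lower genes with no filter. It had 129 and 128 without leaf 9 replicate 1 of Palomero, 127 and 114 without its leaf 5 replicate 2, 160 and 157 without leaf 9 replicate 1 of Mushito and 128 each without leaf 9 replicate 2 of Mushito. The 7 comparisons share the Palomero libraries, and the differences between their counts were not tested.

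**Figure D3:**
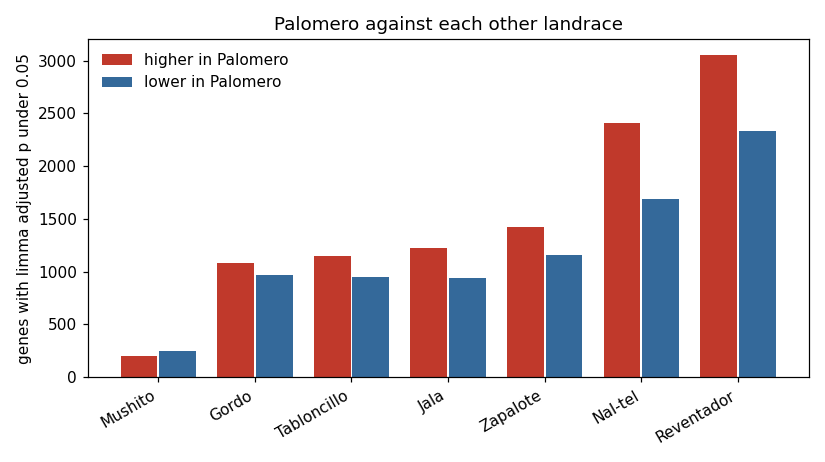
Number of genes with a limma adjusted p under 0.05 (vertical axis) between Palomero and each other landrace, both leaves averaged; red bars are genes higher in Palomero and blue bars genes lower. The bars for Mushito (205 and 253) are the shortest and those for Reventador (3053 and 2331) the tallest.

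Single libraries moved several of these pairs by over 1.5 times. In the Mushito pair the count was 257, 300 and 241 without the Palomero leaf 9 replicates 1 and 2 and leaf 5 replicate 2. It was 256 without the Mushito leaf 9 replicate 2 and 689 without the Mushito leaf 5 replicate 2. In the Zapalote pair it was 1696, 1691 and 1718 without the Palomero leaf 9 replicates 1 and 2 and leaf 5 replicate 2, and 1689 without the Zapalote leaf 5 replicate 2. Without the Palomero leaf 9 replicate 2 the Tabloncillo, Gordo, Jala and Nal-tel pairs had 1284, 1241, 1429 and 2533 calls. Without the Palomero leaf 5 replicate 1 the Tabloncillo, Gordo and Jala pairs had 1395, 1361 and 1431. The Gordo pair had 1327 without the Gordo leaf 9 replicate 2, and the Jala pair 1416 without the Jala leaf 5 replicate 1. The Mushito pair kept the lowest count in each of these fits.

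The whole profiles gave the same order at its near end. Across genes, which are not independent replicates, the log2 values of Palomero replicates correlated with r of 0.967 in leaf 9 and 0.972 in leaf 5, and those of its 2 leaves with a median r of 0.955. With Mushito libraries of the same leaf the median r was 0.945 (0.931 to 0.947 over 8 pairs of libraries). The medians for the other 6 landraces lay between 0.903 (Reventador) and 0.923 (Jala).

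Mushito was also the landrace closest in level for many of the genes in which Palomero stood out. Of the 1398 higher genes, 556 (39.8%) had Mushito as the landrace nearest to Palomero, and of the 1128 lower genes 349 (30.9%) did; over all tested genes the share was 20.6%. The median difference from Mushito was 0.47 on the log2 scale in the higher genes and −0.60 in the lower ones. From the other 6 landraces it was 0.99 to 1.60 in the higher genes and −0.82 to −1.15 in the lower ones. The mean of the 7 landraces includes Mushito, and without Mushito 3197 genes were called.

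A stricter view keeps only genes in which Palomero differed from each of the 7 landraces in the same direction. There were 90 such genes (0.344%), 37 higher (0.141%) and 53 lower (0.203%), by limma with the 0.05 threshold in each of the 7 pairs. The number was 59 without leaf 9 replicate 1 of Palomero and 56 without leaf 5 replicate 2. With the Mushito libraries left out of both the fit and the rule it was 281. The split between directions moved with the handling of low values: 41.1% of the 90 were higher, against 25% of 76 with a pseudocount of 0.1, 64% of 111 with a pseudocount of 10, 69.6% of 171 with no filter and 27.9% of 61 with a minimum mean of 50. Without Mushito 52.3% were higher.

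Zm00001eb048830 had the largest of the smallest pair differences among the higher genes not yet named. It had 446 and 320 normalized counts in leaf 9 of Palomero and 333 and 277 in leaf 5, against 23.6 to 254 (median 68) in the other 28 libraries. The gene averaged 75.05 in those 28, so it met the minimum mean for naming only through Palomero. The smallest difference was 1.17 on the log2 scale against Reventador and the largest 3.07 against Mushito, so Mushito was here the farthest landrace. Its weakest pair had a limma adjusted p of 0.0491, and the gene no longer met the rule in 23 of the 32 fits that left out 1 library. It also failed the rule, with adjusted p of 0.0513 to 0.0931 in the weakest pair, with a pseudocount of 0.1, no filter, a minimum mean of 50, quantile normalization, centred libraries, the additive model and edgeR, and without Gordo, Nal-tel or Jala.

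Zm00001eb326120 had 534 and 374 normalized counts in leaf 9 of Palomero and 482 and 559 in leaf 5, against 84.6 to 270 (median 148) elsewhere. Its smallest pair difference was 1.12 on the log2 scale, against Gordo, with a limma adjusted p of 0.0374 in the weakest pair; it no longer met the rule in 10 of the 32 leave-out fits, nor without Nal-tel (limma adjusted p = 0.0528). Over the mean of the other 7 landraces these 2 rises were 2.44 and 1.68 on the log2 scale, smaller than those of the 2 higher genes named first. Of those, Zm00001eb004080 was itself not called against each of the 7 landraces.

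Among the lower genes, Zm00001eb273310 had 0 and 40.5 normalized counts in leaf 9 of Palomero and 13.2 and 1.06 in leaf 5, against 33 to 830 (median 271) in the 28 others. The groups overlapped, since leaf 9 replicate 2 of Palomero lay above the lowest of the other libraries. Its pair differences ran from −4.16 on the log2 scale against Gordo to −6.63 against Mushito (largest limma adjusted p 0.00123).

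Zm00001eb238160 had 0 and 7.36 normalized counts in leaf 9 and 2.2 and 0 in leaf 5, against 20.1 to 313 (median 83) elsewhere, without overlap. Its pair differences ran from −3.92 against Mushito to −6.75 against Nal-tel on the log2 scale (largest limma adjusted p 0.000333).

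Without any model, the 4 Palomero libraries lay outside the range of all 28 others in 119 of the 26156 genes (0.455%). They were above in 77 genes (0.294%) and below in 42 (0.161%). The split leaned on low genes: it was 39 above and 38 below among genes averaging 100 or more, 49 and 40 with a minimum mean of 50, and 109 and 42 with no filter. Of the 77, 18 (23.4%) averaged under 10 normalized counts outside Palomero and were tested only through it. All 119 were also called in that direction, but from the same values, so the calls add no separate support. Their median log2 fold change was 3.32 for those above and −1.56 for those below. Of the 90 genes called against each landrace, 53 (27 higher, 26 lower) were among the 119. The number was 190 without leaf 5 replicate 2 of Palomero, and 320 without the Mushito libraries.

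Complete presence against absence was rare. Of the 39756 genes in the table, 2 had at least 10 reads in each Palomero library and at most 3 in each of the other 28 (0.00503%), and 0 (0%) had the reverse layout. Zm00001eb169700 had 69.7 and 137 normalized counts in leaf 9 of Palomero and 73.9 and 10.6 in leaf 5, and 0 in all 28 other libraries. With 3 reads per library taken as the floor, it was at least 23.6-fold higher in Palomero. Zm00001eb219550 had 35.4 and 60.1 in leaf 9 and 40.8 and 20.2 in leaf 5, against 0 to 3.09 elsewhere, where 9 reads were found in all. At a minimum of 20 reads the number of genes was 0, and it was 5 without leaf 5 replicate 1 of Palomero. Without Mushito 10 genes met the rule, 7 of them present and 3 absent in Palomero; without Jala there were 4.

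Within single leaves fewer genes were called. In leaf 9 Palomero differed from the mean of the other 7 landraces in 717 genes (2.74%), 370 higher (1.41%) and 347 lower (1.33%). In leaf 5 it differed in 1348 genes (5.15%), 729 higher (2.79%) and 619 lower (2.37%), by the same limma fit. Without leaf 9 replicates 1 and 2 of Palomero the leaf 9 count was 221 and 198. Without its leaf 5 replicates 1 and 2 the leaf 5 count was 302 and 197. When each leaf was fitted on its own 16 libraries, the order of the leaves turned round, with 793 genes in leaf 9 and 668 in leaf 5. The share of calls that were higher was 73.6% in leaf 9 and 71.4% in leaf 5 under edgeR, against 51.6% and 54.1% under limma. It was 28.8% in leaf 9 without the Palomero leaf 9 replicate 2, and 34.1% in leaf 5 without leaf 5 replicate 1.

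In leaf 9, Zm00001eb263970 had 1691 and 5301 normalized counts in Palomero, against 0 to 242 (median 12.3) in the 14 leaf 9 libraries of other landraces. Its log2 fold change was 8.02 (SE 1.04, limma adjusted p = 7.75e-05). The gene averaged 27.3 in those 14 libraries and met the minimum mean for naming only through Palomero. In leaf 5 of Palomero the same gene had only 20.9 and 6.36 normalized counts, and the test of the difference between leaves gave a limma adjusted p of 0.0541.

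Zm00001eb359110 was high in both leaves, with 1005 and 974 normalized counts in leaf 9 of Palomero and 1005 and 613 in leaf 5; the other leaf 9 libraries had 0 to 60.5 (median 18.1). Its leaf 9 log2 fold change was 5.97 (SE 0.85, limma adjusted p = 0.000226). This gene averaged 23.85 in the other leaf 9 libraries and likewise met the minimum mean for naming only through Palomero.

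Zm00001eb059880 had 0 and 0 normalized counts in leaf 9 of Palomero, against 2.41 and 4.47 in Mushito and 155 to 608 in the other 6 landraces. The gene was thus low in Palomero and Mushito alike, and at least 94.7-fold lower in Palomero than the mean of the 14 libraries, taking 3 reads per library as the floor (limma adjusted p = 3.41e-07). In leaf 5 it had 14.3 normalized counts in replicate 1 of Palomero and 0 in replicate 2.

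Zm00001eb297880 had 0 and 2.45 normalized counts in leaf 9 of Palomero, or 2 reads in all, against 19 to 1089 (median 732) in the others. Mushito (36.2 and 19) and Gordo (50.6 and 91) were also low in leaf 9. The Palomero mean was 471-fold lower than that of the 14 other libraries, with a counting interval of 130 to 3890 (exact Poisson, 95%). The limma adjusted p was 1.25e-05. The interval takes the 2 reads as independent and is too narrow if they are mates of 1 pair. Here too leaf 5 replicate 1 of Palomero was higher, with 35.3 normalized counts against 2.12 in replicate 2. The Mushito leaf 5 libraries had 1.89 and 106, so the groups overlapped in leaf 5.

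In leaf 5, Zm00001eb099740 had 2434 and 2785 normalized counts in Palomero, against 0 to 1823 (median 32) in the 14 others. Mushito held the upper end, with 474 and 1823, and the other 12 libraries reached at most 142. Its log2 fold change was 7.07 (SE 1.12, limma adjusted p = 0.000901). Zm00001eb376410 had 767 and 759 in Palomero against 0 to 80.6 (median 3.91), a rise of 6.94 on the log2 scale (SE 0.68, limma adjusted p = 9.22e-06). It averaged 16.5 in the 14 others and met the minimum mean for naming only through Palomero. Both genes were also high in leaf 9 of Palomero, with 2768 and 2982 for Zm00001eb099740 and 623 and 747 for Zm00001eb376410. The test of the difference between leaves gave limma adjusted p of 0.999 and 0.975.

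Among genes lower in leaf 5, Zm00001eb404790 had 0 and 0 normalized counts in Palomero, against 8.69 to 1241 (median 228) in the others. It was at least 122-fold lower in leaf 5 at the same floor (limma adjusted p = 0.000416). Both leaf 9 libraries of Palomero were also at 0, but so was leaf 9 replicate 2 of Gordo, and that of Zapalote had 2.05. Zm00001eb341290 had 0 and 0 in Palomero against 1.89 to 357 (median 118), at least 43.4-fold lower (limma adjusted p = 0.00494). That call was lost without either leaf 5 library of Palomero, with limma adjusted p of 0.0951 without replicate 1 and 0.107 without replicate 2. Mushito varied widely in this gene, with 1.89 and 357 in its 2 leaf 5 libraries. Leaf 9 of Palomero was also at 0 and 0, as was leaf 9 replicate 2 of Mushito. For Zm00001eb341290 the test of the difference between leaves gave a limma adjusted p of 0.999.

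Few genes passed the test for a leaf difference of their own in Palomero. The difference between leaf 9 and leaf 5 departed from the mean of the other 7 landraces in 8 genes (0.0306%), 4 in each direction (0.0153%), by limma's test of that difference, with 1616 genes at an unadjusted p under 0.05. Their departures were 1.52 to 8.60 on the log2 scale in size. edgeR called 2 genes and DESeq2 86. The count was 3 and 4 without the Palomero leaf 5 replicate 1 and leaf 9 replicate 1. It was 33 without the Mushito leaf 5 replicate 2, 32 and 16 without the Tabloncillo leaf 9 replicates 1 and 2, 5 without the Gordo leaf 5 replicate 1 and 5 without the Reventador leaf 9 replicate 1. The labels name the libraries in 1 series per leaf, so library series and leaf cannot be told apart within any landrace.

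Zm00001eb192380 gave the smallest p. It had 1050 and 1714 normalized counts in leaf 9 of Palomero and 63.9 and 36.1 in its leaf 5. The other landraces had 10.9 to 301 (median 189) in leaf 9 and 35 to 563 (median 251) in leaf 5. Palomero thus lay above every other leaf 9 library, while its leaf 5 was at the low end, near Mushito. The leaf difference on the log2 scale was 4.77 in Palomero, against −1.0 (Gordo) to −0.09 (Reventador) in the others, a departure of 5.39 (SE 0.58, limma adjusted p = 0.000247).

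Zm00001eb415760 had 2701 and 3761 normalized counts in leaf 9 of Palomero and 1270 and 1452 in leaf 5. Elsewhere it had 1535 to 4602 (median 2548) in leaf 9 and 1688 to 5589 (median 3549) in leaf 5, so Palomero lay below all others in leaf 5 and among them in leaf 9. Its departure was 1.52 (SE 0.22, limma adjusted p = 0.00464), with a leaf difference of 1.23 in Palomero against −1.36 (Zapalote) to 0.31 (Nal-tel). The call was lost without the Palomero leaf 5 replicate 1 (limma adjusted p = 0.0989) or leaf 9 replicate 2 (0.111), and with the landrace as the unit.

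Zm00001eb014050 ran the other way, with 831 and 978 normalized counts in leaf 9 of Palomero and 3111 and 2401 in leaf 5. The other landraces had 858 to 3818 (median 1206) in leaf 9 and 246 to 2268 (median 946) in leaf 5. Its departure was −2.24 (SE 0.36, limma adjusted p = 0.0232); the leaf difference was −1.60 in Palomero and −0.63 (Mushito) to 1.69 (Reventador) in the others. The call was lost without any 1 of the 4 Palomero libraries, with limma adjusted p of 0.0576 to 0.227, under edgeR (adjusted p = 0.0709) and with the landrace as the unit. It was also lost without Reventador (limma adjusted p = 0.121) or Gordo (0.0837).

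Zm00001eb195370, already named among the lower genes, was the fourth, with a departure of −4.23 (SE 0.71, limma adjusted p = 0.029). Its leaf 9 libraries of Palomero were both at 0, so the size depends on the pseudocount, and with a pseudocount of 10 the limma adjusted p was 0.69. The call was also lost under edgeR (adjusted p = 0.293), with the landrace as the unit, and without Reventador, Gordo or Nal-tel (limma adjusted p of 0.055 to 0.0865). Without the Palomero leaf 5 replicate 1 the limma adjusted p was 0.342, without leaf 9 replicates 1 and 2 it was 0.211 and 0.169, without the Gordo leaf 5 replicate 1 it was 0.0509 and without the Reventador leaf 9 replicate 1 it was 0.0504.

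**Figure D4:**
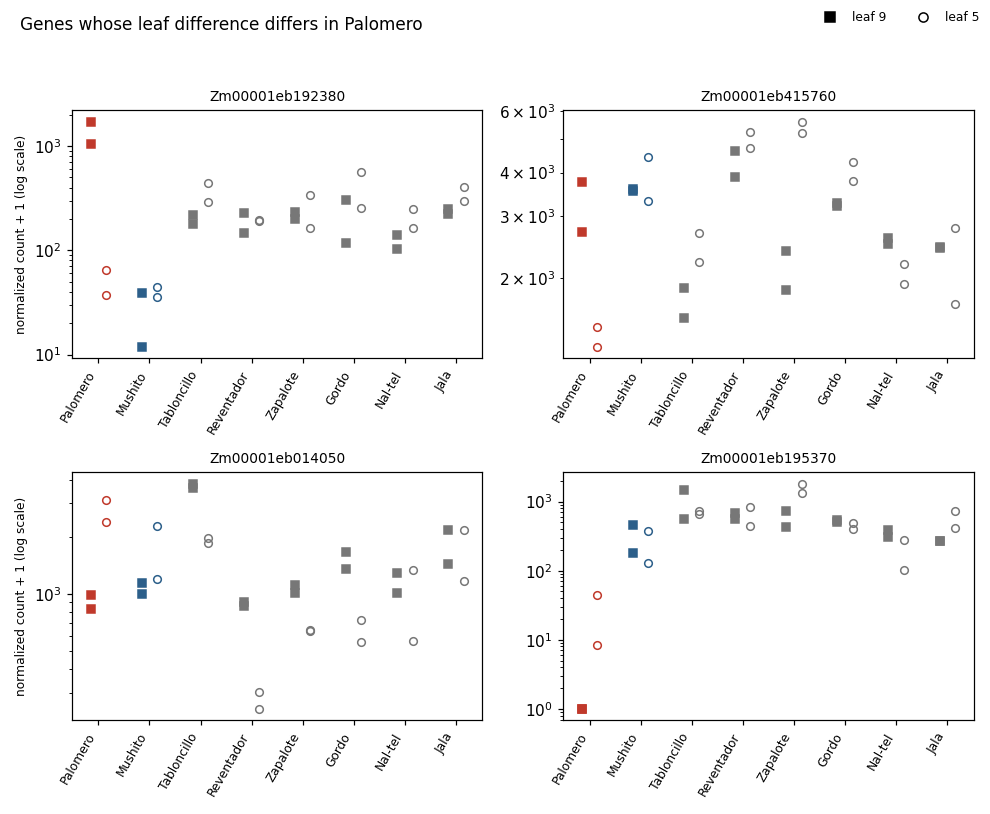
Normalized counts plus 1 (vertical log axis) of the 4 genes named for a leaf difference of their own in Palomero, by landrace; filled squares are leaf 9 libraries, open circles leaf 5 libraries, with Palomero in red and Mushito in blue. In Palomero the squares lie above the circles in the upper panels and below them in the lower panels.

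The called genes were not spread evenly along the order of their IDs. IDs of this form are numbered along the chromosomes of the assembly, so neighbouring numbers are neighbouring genes; no coordinates were used. Cut into 261 windows of 100 tested genes, a window held 2 to 26 called genes, with a median of 9. The densest 3 neighbouring windows, chosen after the values were seen, ran from Zm00001eb190210 to Zm00001eb194800. There 67 of 300 genes were called (22.3%), 21 higher and 46 lower, against 2459 of 25856 tested genes elsewhere (9.51%).

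Against Mushito only 1 of those 300 genes was called (0.333%), where 1.77% of the genes elsewhere were. Against the other 6 landraces 48 (Jala, 16%) to 84 (Reventador, 28%) of them were, where 8.2% and 20.5% of the genes elsewhere were. In this stretch the count against Mushito was far below that against each of the other 6 landraces. Elsewhere Mushito was lowest too, with 1.77% against 7.75% (Gordo) to 20.5% (Reventador). The next densest 3 windows, from Zm00001eb332480 to Zm00001eb336960, held 63 called genes of 300 (21%), 23 higher and 40 lower. There 13 genes (4.33%) differed from Mushito and 41 (Jala, 13.7%) to 85 (Reventador, 28.3%) from the other landraces. Outside the first stretch these shares were 1.77%, 8.2% and 20.5%. Both stretches held more lower than higher genes. No test was made, since neighbouring genes are not independent and the windows were picked for their counts.

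**Figure D5:**
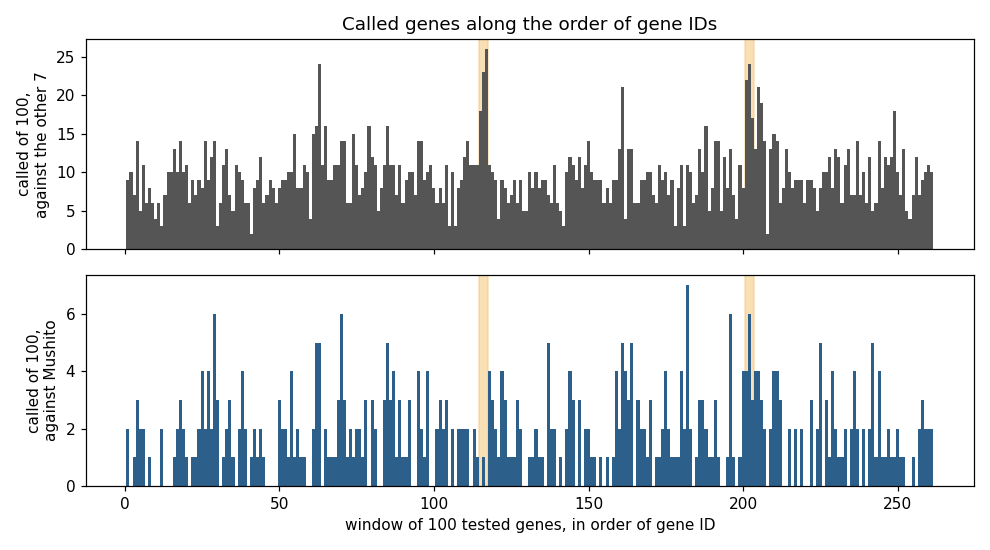
Called genes in each of 261 windows of 100 tested genes, in the order of gene IDs (horizontal axis), for Palomero against the other 7 landraces (upper panel) and against Mushito (lower panel, own scale). Shading marks the 2 densest sets of 3 windows, with 67 and 63 called genes in the upper panel and 1 and 13 in the lower one.

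Called genes also lay side by side at a finer scale. A gene next to one called higher was itself called higher in 8.73% of cases, against 5.34% of all tested genes; for lower genes the shares were 7.98% and 4.31%. The longest run of neighbours called higher held 5 genes, from Zm00001eb099730 to Zm00001eb099770, with log2 fold changes of 3.83 to 6.96. The gene Zm00001eb099740, named above for leaf 5, is the second of them. In all 5 the median of Mushito also lay above that of the other 6 landraces. Against Mushito alone the log2 fold changes were 0.20 to 2.14, with limma adjusted p of 0.0942 to 0.969. Zm00001eb099770, at the end of the run, had 232 to 540 normalized counts in Palomero (median 465), against 181 to 697 (median 371) in Mushito and 0 to 122 (median 3.7) in the other 6 landraces.

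The longest run called lower held 4 genes, from Zm00001eb195290 to Zm00001eb195370, with log2 fold changes of −1.72 to −6.74. It ends with the gene named first among the lower ones. Against Mushito the 4 differences ran from −0.58 to −5.84 on the log2 scale, and 3 of the 4 had a limma adjusted p under 0.05. Those 3 genes were thus lower on average in Palomero than in Mushito as well. Libraries overlapped in Zm00001eb195290, with 21.25 to 73.86 normalized counts in Palomero and 49.15 to 294.9 in Mushito. They also did in Zm00001eb195340, with 0 to 41.89 and 2.836 to 118.4, but not in Zm00001eb195370.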

How the data were processed

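Libraries were grouped by landrace and leaf from the labels: 16 groups of 2. Per the labels' protocols, RNA from a column kit went into directional poly(A) libraries. The submitters' processing notes name STAR, featureCounts and DESeq2; roles, versions, genome build and annotation are not given in the sources used here. The authors deposited a signal of normalized counts for 39756 genes in 32 libraries (0 columns were left unmapped). In each library the values were whole multiples of 1 step within a tolerance of 0.01, so reads were recovered by division; for leaf 9 replicate 1 of Reventador and replicate 2 of Gordo that step lay too near 1 for an automatic check. Among values of 1 to 20 reads 76.7% to 87% were even per library, so reads are not independent molecules, and intervals and the floor of 3 reads cover counting error only. Genes with near-identical copies were not identified, and their values are uncertain.

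Genes averaging at least 10 normalized counts (26156) entered limma 3.58.1 (R 4.3.3) as log2(normalized count + 1). The model held 16 group means and 1 residual spread over all 32 libraries (lmFit, eBayes with trend), with Benjamini-Hochberg adjustment within each comparison at 0.05. The mean of the other 7 landraces weights each group equally. edgeR 4.0.16 (TMM, quasi-likelihood) and DESeq2 1.42.0 (Wald test) were run on recovered reads as alternatives. Others were pseudocounts of 0.1 and 10, no filter or a minimum mean of 50, quantile normalization, centred libraries, robust eBayes, an additive model, the landrace as the unit, single leaves, and leaving out each library or landrace. Python 3.11.15, numpy 2.4.6, pandas 2.3.3, scipy 1.17.1 and matplotlib 3.10.9 did the rest, and the tests were tested on simulated data.

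At most 2 IDs per direction are named per comparison: called genes that average at least 100 and have all Palomero libraries (of that leaf) outside the range of the others, by largest log2 fold change; for the leaf difference, by smallest p; for differences from each landrace, by the largest of the smallest pair differences; for presence, by highest mean. Genes already named were skipped, except for the leaf difference. A p-value is left out where a gene met the minimum mean for testing only through Palomero. The comparisons, lists and rules were chosen with earlier results of these data known. Gene lists and cell type markers by symbol were not tested, since no ID matched a symbol.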

Additional observations from a re-analysis of the deposited data

Results flagged for a closer look

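In 2 measures leaf 5 replicate 1 of Palomero lay apart from the 3 other Palomero libraries by Dixon's test, which chance passes in about 1 of 20 groups; 14 such tests were made, over 4 libraries that span both leaves. It had 44.1 normalized counts of Zm00001eb195370, where the leaf 9 libraries had 0 and 0 and leaf 5 replicate 2 had 7.43. Its ratio of gap to range was 0.832, barely past the critical value, and the gene was itself called for a leaf difference. It also held 177 genes with at least 10 reads that had at most 3 in each of the other 3, against 54, 71 and 56 in those libraries.

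In 4 of the 8 genes called, those that average at least 100 normalized counts, the difference between leaf 9 and leaf 5 in Palomero departed from the mean of the other 7 landraces by limma's test of that difference. The departure on the log2 scale was 5.39 for Zm00001eb192380, 1.52 for Zm00001eb415760, −2.24 for Zm00001eb014050 and −4.23 for Zm00001eb195370. The call of the first held in every alternative run for it, and those of the other 3 were each lost in several.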

How the results depend on the processing

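The 2526 calls over both leaves became 0 with the landrace as the unit and 1200 to 2903 with 1 library left out. The 1348 leaf 5 calls became 668 on that leaf's own 16 libraries, 2267 with DESeq2 and 197 to 1828 with 1 library left out; the 717 leaf 9 calls became 1239 with DESeq2 and 198 to 795. The 90 genes called against each landrace became 171 with no filter, 141 with DESeq2, 281 without Mushito and 56 to 99 with 1 library left out. The 8 leaf-difference calls became 14 with a pseudocount of 10, 43 with no filter, 4 with a minimum mean of 50, 14 with a replicate block, 4 with the landrace as the unit, 2 with edgeR and 86 with DESeq2. They were 22 without Tabloncillo, 4 without Reventador, 16 without Mushito, 5 without Gordo, and 3 to 33 with 1 library left out. The 119 genes outside the range became 320 without Mushito and 119 to 190 with 1 library left out. The 2 genes that were on or off in Palomero alone (2 on, 0 off) became 0 at 20 reads, 1 with absence at 10 and presence at 50 reads (off in Palomero), 10 without Mushito (7 on, 3 off), 4 without Jala (3 on, 1 off), and 2 to 5 with 1 library left out. The cause of these shifts was not tested.

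Of 343 alternative counts for the pairs, 323 stayed within 1.5 times; the Mushito pair also gave 296 at a minimum mean of 50 and 977 with DESeq2. Of 1004 alternative values of named genes, 932 kept their direction and side of the threshold, 72 kept only the direction and 0 reversed. Palomero libraries were compared only with same-numbered libraries of the same leaf in each other landrace, and 1 of the 14 correlations of their deviations was over 0.1 (range −0.0717 to 0.1102), so the numbers were not taken to pair them; the replicate block gave 2535 calls over both leaves, 1383 leaf 5 and 734 leaf 9 ones, and 91 against each landrace.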

Other observations

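A gene under the mean required for naming, chosen here after its values were seen, had the largest leaf departure among the 8 called. Zm00001eb279860 had 0 and 0 normalized counts in leaf 9 of Palomero and 1066 and 134 in leaf 5, against at most 2.97 in leaf 9 and 4.12 in leaf 5 libraries of the other 7 landraces. Of the 16 groups only leaf 5 of Palomero exceeded that level, and its 2 libraries there differed widely. The departure was −8.60 on the log2 scale, a size that depends on the pseudocount, since both leaf 9 libraries were at 0. The gene met the minimum mean for testing only through these 2 libraries, so its p-value is not given.

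Zm00001eb093650, also chosen after its values were seen, was absent from a single group. It had 18.9 and 51.5 normalized counts in leaf 9 of Palomero and 0 and 0 in leaf 5, against 3.99 to 64.2 in leaf 9 and 6.77 to 48 in leaf 5 libraries of the other landraces. Leaf 9 of Palomero thus lay within the range of the others. The departure was 5.19 (SE 0.90, limma adjusted p = 0.0351), a size that again depends on the pseudocount.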
